A study of Homo sapiens with 6 samples.

Results

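The genes described here are 9 genes whose products cut and rejoin DNA during V(D)J recombination, the assembly of antibody and T-cell receptor genes from separate gene segments. They are RAG1, RAG2, DNTT, DCLRE1C, PRKDC, XRCC4, XRCC5, XRCC6 and LIG4. They were named by symbol, with earlier results of these data known, and found among the 62703 gene IDs of the count files with 1 ID each. Their RNA was measured in SEM, a long-established human cell line from a B-cell acute lymphoblastic leukaemia (B-ALL) with the KMT2A::AFF1 fusion gene. Knock-down cells (KD, 3 libraries) had received a pair of Dicer-substrate siRNAs against the back-splice junction of the fusion-derived circular RNA AK_8_2, and control cells (NC, 3 libraries) a commercial non-targeting duplex. Both groups went through a reverse lipid transfection and a forward one 24 h later, so the controls share the fusion gene and the transfections with the knock-down cells. The labels call the replicates independent and do not say what was separate. The design asks which transcripts differ in abundance once AK_8_2 is silenced, and how far it was silenced is not measured by these counts.

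V(D)J recombination begins when the RAG1 and RAG2 proteins, which are made in developing lymphocytes, together cut DNA beside paired gene segments and leave hairpin-sealed coding ends. The ends are then handled by non-homologous end joining, the repair route that most cells use for broken DNA. In it the Ku heterodimer (XRCC5 and XRCC6) holds the ends, the kinase DNA-PKcs (PRKDC) activates the nuclease Artemis (DCLRE1C) to open the hairpins, and XRCC4 with DNA ligase IV (LIG4) seals the join. Terminal deoxynucleotidyl transferase (TdT, the product of DNTT) adds untemplated nucleotides at the junctions, and its protein is used clinically as a marker of immature lymphoid leukaemia.

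Promoter windows are shown for RAG2 and DNTT, which were barely detected in these cells, and for XRCC6, the most abundant member in NC per kilobase of exon. Because these 3 were picked by their levels, they cannot show a relation between sequence and level. RefSeq (GRCh38.p14) windows were held for 7 of the 9 genes (all but PRKDC and XRCC5), 12 windows in all. Each window is the 250 bases before the RefSeq transcript start. The part printed is the stretch outside the gene as GENCODE 29 annotates it, 5′ to 3′ on the gene's strand, with every CG dinucleotide in capitals, because GENCODE 29 starts the 3 genes further upstream. It puts 43 bases of the RAG2 window, 38 of the DNTT window and 176 of the XRCC6 window inside the gene, which leaves 207, 212 and 74 bases. The RAG2 stretch is chr11:36598280-36598486 (minus strand), the DNTT stretch chr10:96304184-96304395 (plus strand) and the XRCC6 stretch chr22:41621045-41621118 (plus strand).
RAG2: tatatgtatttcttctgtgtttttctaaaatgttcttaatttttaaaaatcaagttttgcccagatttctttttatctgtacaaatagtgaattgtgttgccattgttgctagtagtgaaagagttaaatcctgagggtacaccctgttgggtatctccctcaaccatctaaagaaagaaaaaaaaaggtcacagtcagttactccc
DNTT: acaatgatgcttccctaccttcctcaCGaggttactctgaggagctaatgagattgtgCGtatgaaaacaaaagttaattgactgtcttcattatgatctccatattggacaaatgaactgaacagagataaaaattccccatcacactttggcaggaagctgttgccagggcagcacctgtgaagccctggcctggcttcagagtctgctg
XRCC6: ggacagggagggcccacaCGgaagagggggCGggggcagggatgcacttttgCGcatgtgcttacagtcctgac

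The printed stretches held 0, 2 and 3 CG dinucleotides. Counted over all 250 bases, the RAG2 window held 0 CG dinucleotides at 34.0% G and C, the DNTT window 3 at 46.4%, and the XRCC6 window 19 at 63.6%. Over the 35116 windows of the table the median was 11, 93.9% held at least 1, and 6.06% had as few as RAG2. The XRCC4 window held 21, the 5 LIG4 windows 12 to 28 and the DCLRE1C windows 6 and 22. The motif GGGCGG (either strand, the GC box) was found in 42.6% of all windows. It always contains a CG, so a window without a CG, such as that of RAG2, cannot hold it. It occurred 3 times in the XRCC6 window, once in its printed stretch, and 0 times in the windows of RAG2 and DNTT. The RAG1 and XRCC4 windows held 1 each, the DCLRE1C windows 1 and 2, and the LIG4 windows 0 or 1. The RAG1 window held 25 CG dinucleotides, but it lies before a start at base 36510353. That is far upstream of base 36568025, where the GENCODE 29 coding transcript of RAG1 begins. The RAG1 window therefore says nothing of the start used by the coding transcript. These are descriptions of sequence, and the counts do not show which start sites were used.

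Library facts bear on the lowest of these genes. Counts assigned to genes totalled 14750579 to 26694160 per library. Records outside any annotated feature made up 48.6% to 50.03% in the replicate 1 libraries of both groups and 11.3% to 17.3% in the other 4. Genes with a count numbered 52077 to 53121 in the former and 30641 to 32311 in the latter. In KD replicate 3 multiply aligned records reached 31.5% and mitochondrial ribosomal RNAs took 6.79% of the gene counts, at most 17.3% and 1.34% in the others. Of 9 B-cell precursor markers 5 averaged over 10 CPM (gene counts scaled to a common library size with TMM factors), among them CD22, CD79A and the surrogate light chain genes VPREB1 and IGLL1, and the summed level was 418 to 508 CPM in KD and 401 to 494 in NC. CD79B, VPREB3, CD24 and MME, which encodes CD10, did not reach that level. Outside replicate 1, all 5 mature B-cell markers and 7 of 8 T-cell markers were under 1 CPM in each library, the exception being LCK. The myeloid list (26.4 to 30.5 CPM in KD, 28.1 to 29.96 in NC) included CSF1R as its 1 gene over 10 CPM, and the erythroid list (0.0524 to 2.45 and 0 to 1.93) had none. The non-haematopoietic list summed to 31.2 to 65.9 CPM in KD and 30.6 to 64.4 in NC, with PECAM1 as its 1 gene over 10 CPM.

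The 9 genes ranged from abundant to barely detected. Levels between genes are compared here as CPM per kilobase of exon, with exon lengths from GENCODE 29 (GRCh38). XRCC6 stood at 123 ± 13.0 and XRCC5 at 120 ± 15.1 in NC (SD, n = 3), above 98.7% of protein-coding genes. PRKDC followed at 67.1 ± 18.3, DCLRE1C at 11.0 ± 0.337, XRCC4 at 6.78 ± 0.0680 and LIG4 at 2.37 ± 0.101. XRCC4 was above 72.5% of protein-coding genes in NC and LIG4 above 57.0%, so these 2 were of middling level. RAG2 was at 0.406 ± 0.0725, DNTT at 0.292 ± 0.487 and RAG1 at 0.203 ± 0.245, so the least expressed end-joining gene was 5.83 times the highest of the lymphoid-restricted genes. A step of similar size, 6.08 times, lay between PRKDC and DCLRE1C.

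The order was the same in all 6 libraries from XRCC5 down to RAG2, where each gene exceeded the next in every library. XRCC6 and XRCC5 could not be ordered, since their NC ranges overlapped and XRCC6 was higher in 4 of 6 libraries. RAG2, DNTT and RAG1 could not be ordered in NC either. With coding length in place of exon length XRCC5 (297) passed XRCC6 (222) and RAG1 (0.506) passed DNTT (0.378), and the ranks of the other 5 genes stayed.

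**Figure D1:**
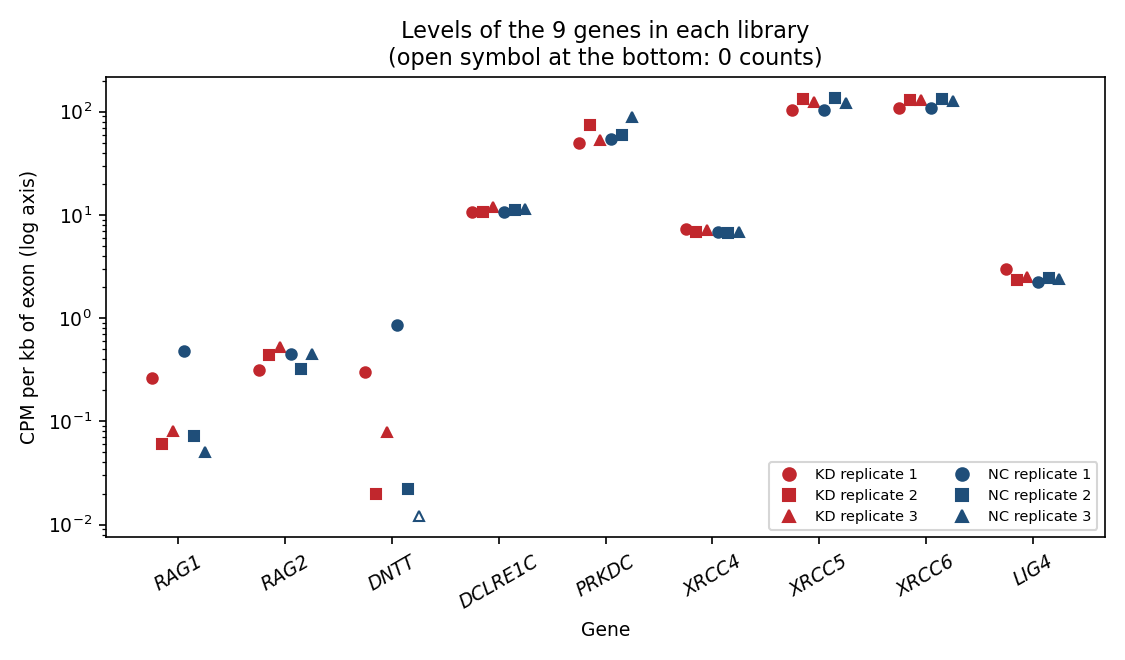
Level of each gene (log axis, CPM per kb of exon) in the 3 KD (red) and 3 NC (blue) libraries, with 1 symbol per replicate number. XRCC5 and XRCC6 lie above 100 in every library, LIG4 between 2.25 and 2.97, and RAG1, RAG2 and DNTT under 1.

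RAG1 (ENSG00000166349.11, chromosome 11, 36510709 to 36593156, plus strand), the subunit that holds the catalytic site, had 38, 12 and 12 counts in KD libraries 1 to 3 and 63, 13 and 9 in NC libraries 1 to 3. The replicate 1 libraries were the highest of each group and held 68.7% of its counts. RAG2 (ENSG00000175097.9, chromosome 11, 36575574 to 36598279, minus strand), the regulatory partner that reads methylated histone H3, had 20, 39 and 35 counts in KD and 26, 26 and 36 in NC. Its counts were not concentrated in replicate 1, which held 25.3% of them. DNTT (ENSG00000107447.8, chromosome 10, 96304396 to 96338564, plus strand) had 11, 1 and 3 counts in KD and 28, 1 and 0 in NC, with 88.6% in replicate 1. Outside replicate 1 DNTT was at or below 3 counts, the limit that a count of 0 allows (0.118 to 0.157 CPM in those libraries, counting error only).

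A background for these low values was taken from 381 olfactory receptor genes, which are expressed in the nose and serve as genes silent in leukaemia cells. This set was chosen after the values were seen. In replicate 1, 87.1% (KD) and 88.5% (NC) of the receptor genes had a count, at a median of 0.174 and 0.194 CPM per kb. In the other 4 libraries 20.2% to 33.3% had one and the median was 0.

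RAG1 at 0.265 CPM per kb in KD replicate 1 exceeded 66.1% of the receptor genes of that library, and at 0.486 in NC replicate 1 it exceeded 87.9%. In the other 4 libraries it stood at 0.0503 to 0.0805 and exceeded 94.0% to 96.1%. RAG2 stood at 0.322 to 0.524 CPM per kb in those 4 libraries and exceeded 99.5% to 99.7% of them, against 75.6% and 85.8% in replicate 1 of KD and NC. DNTT exceeded 74.3% in KD replicate 1 and 97.6% in NC replicate 1, where it had 28 counts. With 1 count each in KD replicate 2 and NC replicate 2 it exceeded 80.1% and 85.8%. With 3 counts in KD replicate 3 it exceeded 96.1%, and with 0 counts in NC replicate 3 it exceeded 0%. Outside replicate 1 a few counts were thus enough for a high percentage, also for RAG1. By comparison XRCC4 and LIG4 exceeded 100% of the receptor genes in each library. The part of the records outside annotated features in the level of RAG1 and DNTT in replicate 1 was not tested.

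**Figure D2:**
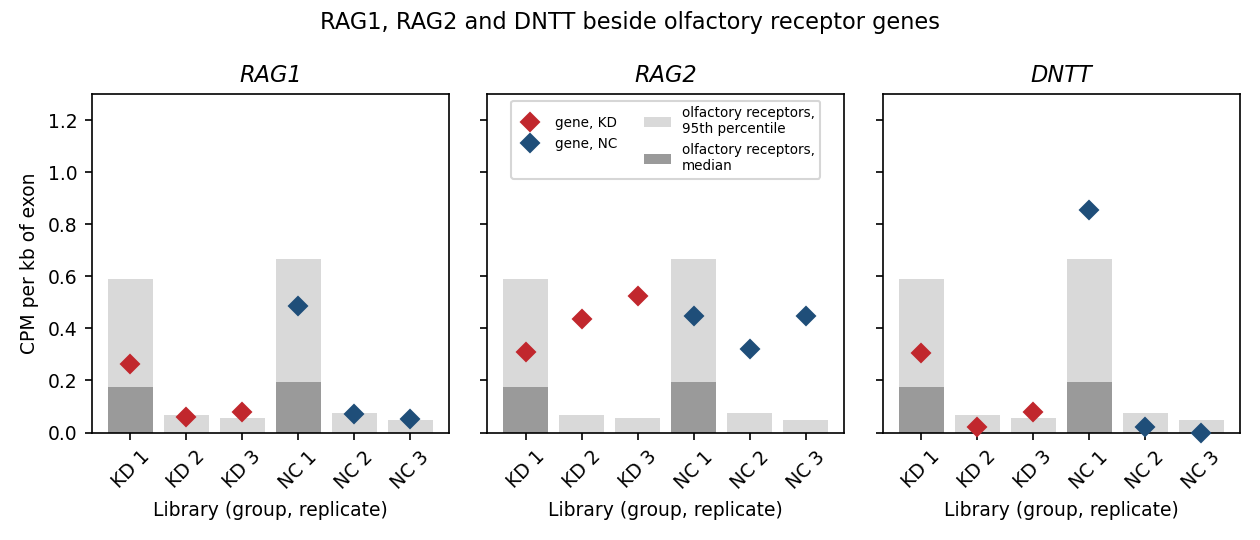
Level (CPM per kb of exon) of RAG1, RAG2 and DNTT in each library (diamonds, KD red and NC blue) over bars that give the median (dark) and the 95th percentile (light) of 381 olfactory receptor genes in the same library. RAG2 lies above the light bar in the 4 libraries outside replicate 1, RAG1 close to it, and DNTT above it in NC replicate 1 and KD replicate 3, where it had 3 counts.

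Overlapping genes limit these counts, because the strand setting of the counting is not given. RAG1 and RAG2 lie tail to tail on opposite strands and share 588 bp of exon in GENCODE 29, 7.52% of the exons of RAG1 and 16.8% of those of RAG2. RAG2 shares a further 321 bp with C11orf74 (IFTAP), a gene of the opposite strand with a mean of 165 counts. DCLRE1C shares 159 bp with SUV39H2. No exon of DNTT, PRKDC, XRCC4, XRCC5, XRCC6 or LIG4 overlapped an exon of another gene in that annotation.

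Of the genes with a mean of at least 10 CPM, those whose log2 CPM followed RAG1 most closely over the 6 libraries were HMGB1P5 (Pearson r 0.992), FRMD4A (0.990) and BPHL (0.989). Those most like DNTT were GCNT1 (0.993), C12orf29 (0.989) and GPATCH11 (0.988), and those most like RAG2 were FAIM (0.956), SEC11C (0.954) and TXNDC11 (0.951). Of 9195 genes searched, 172, 127 and 24 had an r over 0.9 with RAG1, DNTT and RAG2. The 6 points share the split between replicate 1 and the rest, and for RAG1, RAG2 and DNTT rest on few counts.

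Factors known to act upstream of the RAG genes differed widely in level. In NC the B-cell factor PAX5 stood at 116 CPM per kb, the E protein gene TCF3 at 69.1 and EBF1, which sets B-cell identity, at 47.2. FOXO1, which activates transcription of both RAG genes in early B cells, was counted 25, 11 and 12 times in KD libraries 1 to 3 and 15, 13 and 26 times in NC, or 0.139 CPM per kb in NC. That was the lowest of the 14 factors listed, whose median was 26.4. FOXO1, PAX5, TCF3 and EBF1 were singled out after their values were seen. Of its exons 4.32% overlapped another gene in GENCODE 29.

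No member differed detectably between KD and NC. In bulk libraries such as these fewer cells with a transcript and less of it per cell cannot be told apart. The main test was edgeR's quasi-likelihood test with group as the only term, with Benjamini-Hochberg adjustment over 16929 genes. It called 0 of the 8 members tested (DNTT did not pass the filter on low counts), against 0% of all tested genes. At an unadjusted p under 0.05 there were 52 genes over the whole table (0.307%) and 0 members. That is far fewer than a threshold of 0.05 gives with no difference at all, so this unpaired test was conservative here. limma-voom called 0 genes and DESeq2 1, which was no member. A fit with the replicate number as a block called 29 genes (0.171%) and 0 members. KD and NC libraries overlapped for all 9 members, while 3.3% of all tested genes showed no overlap. The median log2 fold change (KD over NC) was 0.01 over the 8 members and 0.00 over all genes (-0.0036), and 6 of the 8 were above 0, against 48.6% of all genes. With library totals in place of TMM scaling 2 of the 8 and 33.7% of all genes were above 0, and with no filter on low counts 4 of the 8 and 48.9%.

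The Ku genes had the fold changes closest to 0 of the 8 members tested in the main fit. This order depended on the scaling and the filter. With library totals the log2 fold changes of RAG2 (-0.016), XRCC4 (0.020) and DCLRE1C (-0.035) were closer to 0 than those of XRCC5 (-0.040) and XRCC6 (-0.041). With no filter on low counts DCLRE1C (0.00017) was closer to 0 than XRCC5 (-0.0068) and XRCC6 (-0.0083). XRCC5 (ENSG00000079246.16, chromosome 2, 216107464 to 216206303, plus strand) gave 565, 728 and 683 CPM in KD libraries 1 to 3 and 571, 736 and 664 CPM in NC libraries 1 to 3. Replicate 1 was the lowest in both groups and the groups overlapped. XRCC6 (ENSG00000196419.13, chromosome 22, 41621119 to 41664048, plus strand) had 357, 429 and 431 CPM in KD and 357, 439 and 418 in NC, again lowest in replicate 1. Their log2 fold changes were 0.0035 (95% interval -0.32 to 0.33) and 0.0030 (-0.28 to 0.29). In the blocked fit the intervals were -0.087 to 0.093 and -0.089 to 0.095. The ratio of XRCC5 to XRCC6 per kilobase stayed between 0.954 and 1.02 in all 6 libraries, at 0.976 ± 0.0385 for KD and 0.976 ± 0.0292 for NC (SD over 3 libraries; two-sided exact permutation p 1, adjusted over 3 ratios 1, smallest p possible 0.1, too large to call a difference). The ratio depends on the length used, since per kilobase of coding sequence XRCC5 stood at 297 CPM and XRCC6 at 222 in NC. The encoded proteins act as a heterodimer, whose proportions RNA does not measure.

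PRKDC (ENSG00000253729.9, chromosome 8, 47773108 to 47960183, minus strand) varied most among the end-joining genes. It stood at 772, 1148 and 819 CPM in KD libraries 1 to 3 and at 831, 914 and 1358 CPM in NC libraries 1 to 3. KD was higher within replicate 2 and lower within replicate 3, and NC replicate 3 was the highest library. The differences within replicates 1, 2 and 3 were -0.11, 0.33 and -0.73 in log2 CPM. The one in replicate 2 was above 90.0% of tested genes and the one in replicate 3 above 5.82%. Its log2 fold change was -0.18 (SE 0.23, 95% interval -0.72 to 0.36, edgeR quasi-likelihood adjusted p 1.00), and without NC replicate 3 it was 0.06. With the block it was -0.17 (95% interval -1.36 to 1.02).

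PRKDC has the longest exon sequence of the members (15417 bp), so its differences were set beside those of all tested genes by exon length, a comparison chosen after the values were seen. Genes with 10 kb or more (n = 1618) had medians of 0.00, 0.05 and -0.11 in replicates 1, 2 and 3, and 25.5% of them were above 0 in replicate 3. Genes of 2 to 5 kb (n = 5768) had 0.01, -0.01 and 0.04, with 60.7% above 0 in replicate 3. Of the longest genes 2.22% were lower than PRKDC in replicate 3 and 91.2% in replicate 2. Across all 16259 genes with a length Spearman's rho between length and difference was -0.03, 0.03 and -0.07. The genes most like PRKDC over the 6 libraries, by the same measure as above and outside the naming rule, were UBR4 (r 0.994), FRS2 (0.993) and DYNC1H1 (0.990). KD replicate 3 is the library with the high shares of multiply aligned records and mitochondrial ribosomal RNA, whose part in the replicate 3 difference was not tested. PRKDC stood at 819 CPM in that library and at 1358 CPM in NC replicate 3. Its log2 fold change was -0.10 without KD replicate 3 and 0.06 without NC replicate 3.

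**Figure D3:**
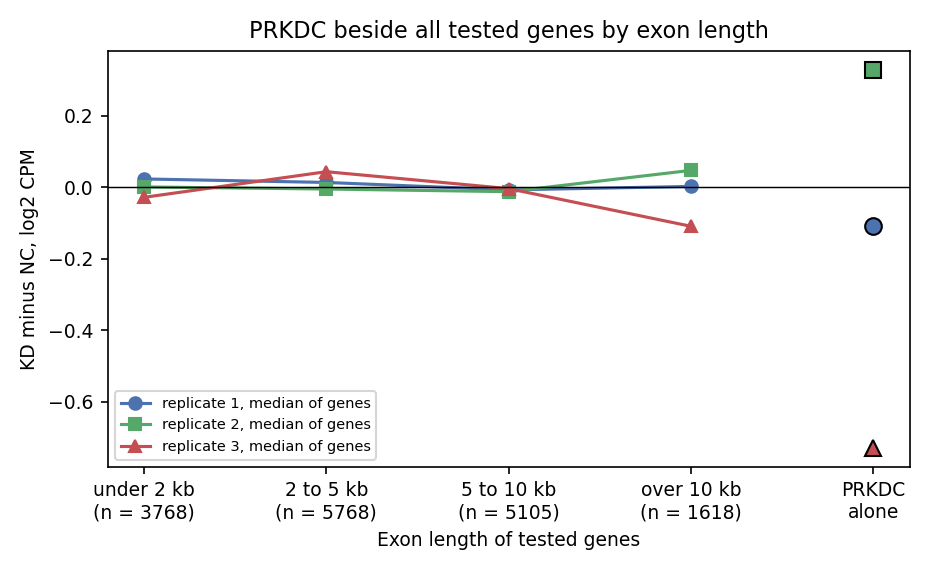
Median difference between KD and NC (log2 CPM) within replicates 1, 2 and 3 for all tested genes in 4 classes of exon length, with PRKDC alone at the right. The class medians lie between -0.11 and 0.05, and PRKDC lies at -0.11, 0.33 and -0.73.

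The nuclease gene and the XRCC4 scaffold gene varied little across libraries. DCLRE1C (ENSG00000152457.19, chromosome 10, 14897359 to 14954432, minus strand) had 66.8, 68.2 and 75.9 CPM in KD and 67.6, 69.8 and 71.8 in NC, with a log2 fold change of 0.01 (95% interval -0.20 to 0.22). XRCC4 (ENSG00000152422.16, chromosome 5, 83077498 to 83353787, plus strand), the scaffold of the ligase, had 19.5, 18.1 and 19.1 CPM in KD and 18.2, 17.9 and 18.3 in NC. It was the 1 member of 9 with the same sign in all 3 replicates (differences of 0.10, 0.01 and 0.06), where 25.6% of all tested genes had such a pattern. Its log2 fold change was 0.06 (95% interval -0.15 to 0.27).

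LIG4 (ENSG00000174405.15, chromosome 13, 108207439 to 108218368, minus strand) had 13.0, 10.2 and 10.9 CPM in KD and 9.88, 10.7 and 10.6 in NC. KD replicate 1 was the highest library and the 2 groups otherwise overlapped. The differences within replicates 1, 2 and 3 were 0.40, -0.07 and 0.04 in log2 CPM, and the one in replicate 1 was above 90.9% of tested genes. The log2 fold change was 0.13 (SE 0.14, 95% interval -0.21 to 0.47), the smallest unadjusted p of the members (0.393), and it was 0.0075 without KD replicate 1 and -0.02 without replicate 1 of both groups. The ratio of XRCC4 to LIG4 per kilobase was 2.75 ± 0.256 for KD and 2.87 ± 0.138 for NC (SD over 3 libraries; two-sided exact permutation p 0.7, adjusted over 3 ratios 1). With 3 libraries against 3 the smallest p possible was 0.1, so this test could not call a difference, and the means differ by less than the SD of either group.

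The RAG genes gave no usable estimate of change at this depth. RAG1 had a log2 fold change of -0.58 with a 95% interval from -3.004 to 1.84. It was 1.15 without NC replicate 1 and 0.18 without replicate 1 of both groups, so its direction rested on those libraries. RAG2 stood at 0.06 (95% interval -0.94 to 1.06), with differences of -0.49, 0.41 and 0.21 within replicates 1, 2 and 3. For DNTT these differences were -1.36, -0.04 and 1.40, and the last, between 3 counts and 0, became 2.92 with a prior count of 0.5 in place of 2. The ratio of RAG1 to RAG2 per kilobase was 0.851, 0.138 and 0.154 in KD and 1.09, 0.224 and 0.112 in NC, higher in replicate 1 of both groups, and the groups overlapped (two-sided exact permutation p 0.8, adjusted over 3 ratios 1, smallest p possible 0.1, too large to call a difference).

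**Figure D4:**
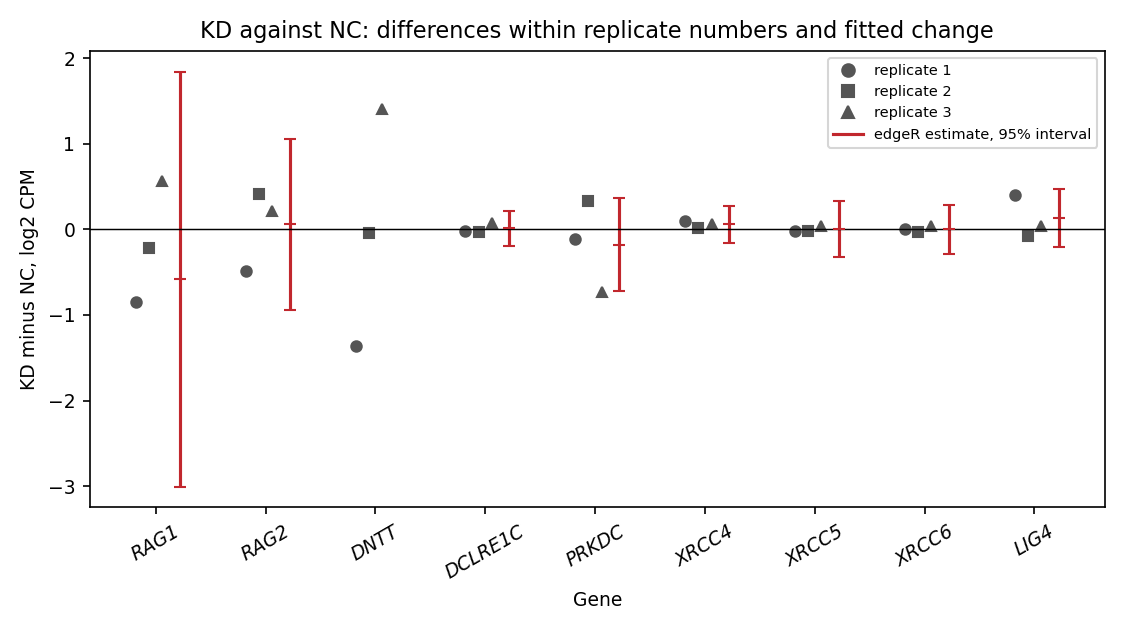
Difference between KD and NC in log2 CPM for each gene, within replicates 1, 2 and 3 (grey symbols) and as estimated by edgeR with its 95% interval (red; DNTT was not tested). The intervals of all 8 genes cross 0, and they are narrowest for DCLRE1C (-0.20 to 0.22) and widest for RAG1 (-3.004 to 1.84).

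A 1.5-fold change in either direction served as a yardstick for the precision of these libraries. Without the block the 95% intervals of 5 of the 8 tested members lay inside it, against 50.7% of all tested genes, and with the block 5 of 8, against 66.6%. RAG1, RAG2 and PRKDC were outside it in both fits.

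The 5 lists of genes around the pathway held no called gene, as did the whole table (0% of 16929 genes), so the counts of 0 say nothing particular to them. Their counts of fold changes above 0 stand beside 48.6% of all genes (33.7% with library totals, where the 5 lists had 1, 5, 2, 1 and 3 above 0 in the order given here), and their medians beside -0.0036. Of the accessory end-joining genes, all 8 were tested and 0 passed, with a median log2 fold change of -0.01 and 2 above 0. APTX, an end-cleaning enzyme and 1 of the 2 genes with the lowest p in this list, had a log2 fold change of -0.07. The XRCC4-like factor NHEJ1 had 19.2 ± 0.985 and 19.5 ± 2.44 CPM, and the TdT-related polymerases POLM and POLL, which fill gaps at junctions, had 11.8 ± 0.894 and 11.95 ± 1.96, and 18.2 ± 3.73 and 18.3 ± 3.78. POLM at 2.66 CPM per kb and POLL at 3.38 in NC were above DNTT, which stood at 0.292 in NC and at 0.855 in NC replicate 1, its highest library. NHEJ1, POLM and POLL were named after their values were seen.

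RAG cofactors and break-response genes (16 tested, 0 passed, 7 above 0, median -0.01) included HMGB1 and HMGB2, which bend DNA for the RAG complex, at 141 and 249 CPM per kb in NC. The lowest p were those of SHLD3 of the shieldin complex (0.31, 3.91 ± 0.520 CPM in KD and 3.14 ± 0.540 in NC) and the ubiquitin ligase RNF8 (-0.11). RAD50 was counted at 0.600 CPM per kb in NC, far under its complex partners MRE11 (13.3) and NBN (19.9), but 79.7% of its exons coincide with those of a readthrough gene of the same strand in GENCODE 29 that is listed at 0 in all 6 libraries, so its level is uncertain. HMGB1, HMGB2, RAD50, MRE11 and NBN were likewise chosen after their values were seen.

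Alternative end joining (6 tested, 0 passed, 4 above 0, median 0.02), a backup route that uses short homologies, had its lowest p at XRCC1 (0.15) and the polymerase gene POLQ (-0.08). Homologous recombination (12 tested, 0 passed, 3 above 0, median -0.04), which copies an intact template, had its lowest p at RAD51B (-0.28) and PALB2 (0.07). The upstream transcription factors (14 tested, 0 passed, 9 above 0, median 0.01) had theirs at GFI1 (0.09) and FOXP1 (-0.07). With the block, which called 0.171% of all genes, 0 members of these 5 lists passed.

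**Figure D5:**
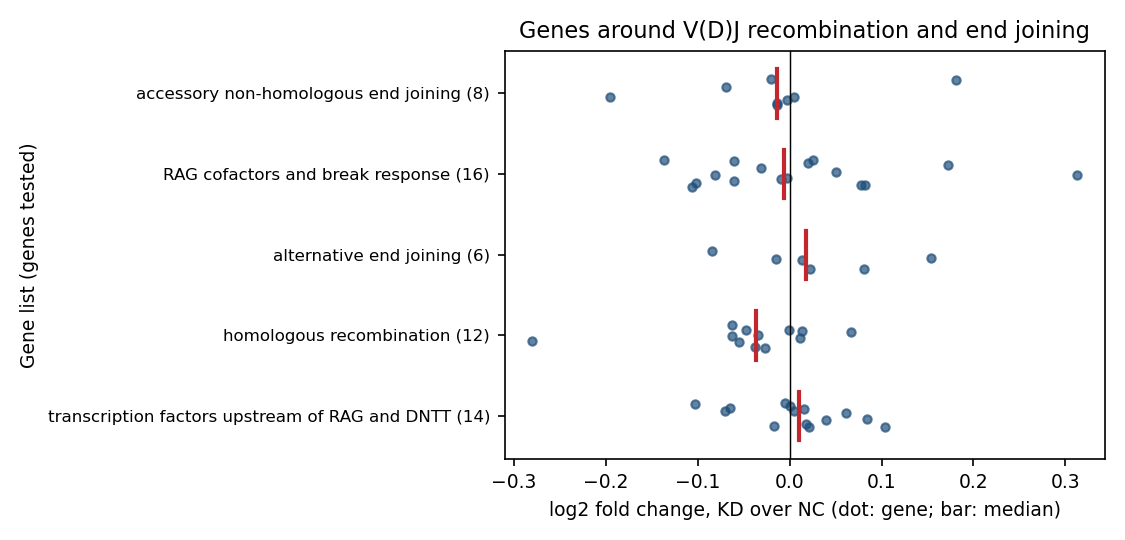
Log2 fold change (KD over NC) of each tested gene in 5 lists of genes around V(D)J recombination and end joining (dots) with the list median (red bar). All dots lie between -0.28 and 0.31, and the medians between -0.04 and 0.02.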

How the data were processed

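The deposited files, 1 per library, hold the authors' raw counts of reads for Ensembl gene IDs, with 5 summary lines that were left out. Per the submitters' processing notes the tools named are STAR 2.7.10a, HTSeq 0.11.1, FastQC 0.11.8 and DESeq2 and the build is hg38. Which annotation release and strand setting were used, and how multiply aligned reads were treated, is not given in the sources used here. Of 62703 IDs 62639 had an entry in the gene name table and 58220 were in GENCODE 29 (GRCh38), which gave coordinates and lengths and may differ from the annotation counted on.

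Counts were fitted in R 4.3.3 with edgeR 4.0.16 (filterByExpr with a minimum count of 10, TMM, robust quasi-likelihood F test, group as the only term), with limma 3.58.1 (voom) and DESeq2 1.42.0 as alternatives and an adjusted p under 0.05 as threshold; the code was tested on simulated data. CPM use TMM library sizes, and log2 CPM a prior count of 2. Chi-square tests of counts between libraries of a group gave at least 20.2 per degree of freedom, above sampling noise, and all 6 were kept. Totals of 14750579 to 26694160 counts limit the precision of low genes, and p-values measure the spread between these libraries, which may be technical.

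Replicate numbers are shared by the groups. Deviations from the group means correlated at 0.889, 0.619 and 0.605 between KD and NC libraries numbered 1, 2 and 3. KD 2 with NC 3 gave 0.590 and KD 3 with NC 2 gave 0.553, so the match by number was clear for number 1 only. The labels state no pairing, and the correlations did not settle it for numbers 2 and 3. Libraries with the same number were still paired for the differences within replicates and the blocked fit. The main test did not pair them and counts the spread between numbers as error. The coefficient of variation between libraries beyond counting error was 0.372 in the main fit and 0.0683 with the block.

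The members and gene lists were chosen with earlier results of these data known. Named were the 9 members, per list the 2 genes with the lowest p, genes overlapping a member and the 3 genes most like RAG1, RAG2 and DNTT; others are said to be chosen after their values were seen. The other gene with the lowest p in the accessory end-joining list is not reported here.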

Additional observations from a re-analysis of the deposited data

How the results depend on the processing

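None of the 8 members tested was called under any of the 16 alternatives run for each. DNTT was fitted only without the filter on low counts (log2 fold change -1.07, edgeR adjusted p 1.00). Over all genes the count of calls was 0 except with DESeq2 (1) and with the replicate block (29), where leaving out replicate 1, 2 or 3 of both groups gave 9, 48 and 27. The block changed no call of a member. The log2 fold changes of members, uncalled throughout, changed sign with library totals only for RAG2 (-0.016), DCLRE1C (-0.035), XRCC5 (-0.040) and XRCC6 (-0.041), and with no filter on low counts for XRCC5 (-0.0068) and XRCC6 (-0.0083). With the replicate block they changed sign without replicate 1 for RAG1 (0.18) and LIG4 (-0.015), without replicate 2 for RAG2 (-0.11), and without replicate 3 for RAG2 (-0.0055), DCLRE1C (-0.028), PRKDC (0.11), XRCC5 (-0.018) and XRCC6 (-0.019). Without replicate 1 of both groups and without the block, an alternative chosen after seeing the data, RAG1 was again at 0.18 and LIG4 at -0.015. Leaving out each of the 6 libraries in turn gave -1.53 to 1.15 for RAG1, -0.11 to 0.23 for RAG2, -0.035 to 0.043 for DCLRE1C, -0.37 to 0.060 for PRKDC, -0.074 to 0.093 for XRCC5, -0.066 to 0.078 for XRCC6 and 0.0075 to 0.22 for LIG4. The log2 differences of the ratios moved likewise, from -1.05 to 0.73 for RAG1 to RAG2, -0.032 to 0.025 for XRCC5 to XRCC6 and -0.11 to 0.017 for XRCC4 to LIG4. XRCC4 kept its sign in all 16. Low counts limit RAG1, RAG2 and DNTT, and the changes of sign of the others lie within their intervals.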
